A study of Mus musculus with 12 samples.

Results

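The small leucine-rich proteoglycans (SLRPs) decorin (Dcn), biglycan (Bgn), fibromodulin (Fmod), lumican (Lum), prolargin (Prelp) and osteoglycin (Ogn) were examined with versican (Vcan), a large hyaluronan-binding proteoglycan, and dermatopontin (Dpt), a small matrix protein that binds decorin. These 8 genes were chosen by name, with earlier results of these data known. They were matched by Ensembl ID to 8 of the 20143 rows of a liver RNA-seq table. Libraries came from 6 mice that lacked Hsd17b13, a lipid-droplet enzyme of hepatocytes (KO, mice 1 to 6), and from 6 wild-type mice (WT, mice 1 to 6), with 1 library per mouse. All 12 mice ate CDAA-HFD, a choline-deficient high-fat diet that produces a fatty and scarred liver, for 12 weeks, starting at 8 to 10 weeks of age. The sources used here do not state the strain, how the deletion was made or any shared litters, so p-values measure the spread between these mice. RNA was from whole liver, and the labels call it polyA RNA while the library protocol describes rRNA and globin depletion.

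SLRPs are secreted proteins built on leucine-rich repeats, and several carry chondroitin, dermatan or keratan sulfate chains. They bind collagen fibrils and set fibril spacing and width, and decorin and biglycan also bind TGF-beta. In injured liver most SLRP RNA comes from stellate cells and portal fibroblasts, the cells that also make fibrillar collagen. Versican belongs to another proteoglycan family and holds hyaluronan in provisional matrix. Dermatopontin carries no sugar chains and promotes collagen fibril assembly.

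Values are CPM, each gene's counts scaled so that a library sums to 1000000, and 1 CPM equalled between 46.3 counts in the shallowest library and 77.9 in the deepest. The member with the fewest counts, Ogn, had at least 86 counts in every library, and Dcn had at least 9855. Hsd17b13 stood at 1.18 ± 0.181 CPM in KO and 347 ± 36.0 CPM in WT (SD, n = 6 each), and every library matched its label. All 12 libraries had Y-linked Kdm5d at 18.3 to 28.9 CPM and Xist at no more than 1.36 CPM, which bears on the X-linked Bgn. In both groups some libraries stood apart. WT mouse 1 was the highest WT mouse in 7 of the 8 members, and KO mice 1 and 3 had 117 and 119 CPM of the pseudogene Gm8730 against 185 to 206 CPM in the other KO mice. For several members results are also given without these libraries. The collagen sum and the values of pathway and marker genes are given with all 12 mice only, so their dependence on these libraries is not shown.

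The 8 genes lie on 4 chromosomes (GENCODE M21 on GRCm38, the build of mm10), none of them on chromosome 5 with Hsd17b13. Dcn (ENSMUSG00000019929, chromosome 10, 97479609 to 97518143) and Lum (ENSMUSG00000036446, 97565128 to 97572703) are adjacent SLRP genes 47.0 kb apart on the plus strand. Prelp (ENSMUSG00000041577, chromosome 1, 133910304 to 133921414, minus strand) and Fmod (ENSMUSG00000041559, 134037254 to 134048277, plus strand) are 116 kb apart. Dpt (ENSMUSG00000026574, 164796644 to 164824266) lies farther along chromosome 1. Ogn (ENSMUSG00000021390, chromosome 13, 49608046 to 49624501) ends a row of SLRP genes that also holds Ecm2, Aspn and Omd, and the whole row sits inside Cenpp, which is read from the other strand. Vcan (ENSMUSG00000021614, 89655312 to 89742509) is on chromosome 13 and Bgn (ENSMUSG00000031375, 73483602 to 73495933) on chromosome X. Of the 3615 exonic bases of Prelp, 350 overlap exons of the antisense gene Gm15851. With the strand setting of the counting not given, reads there cannot be assigned to either gene. The other 7 members share no exonic base with another gene.

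The sequences of the 250 bases before the start that RefSeq annotates are shown for 4 members that differ in how far KO and WT stood apart: Dpt (chr1:164796413-164796662, plus strand) and Fmod (chr1:134037004-134037253, plus strand) at the wide end, Bgn (chrX:73483351-73483600, plus strand) between, and Vcan (chr13:89742513-89742762, minus strand) at the narrow end. They are from RefSeq on GRCm38.p6, 5′ to 3′, and capitals mark matches to 5 searched motifs.
Dpt: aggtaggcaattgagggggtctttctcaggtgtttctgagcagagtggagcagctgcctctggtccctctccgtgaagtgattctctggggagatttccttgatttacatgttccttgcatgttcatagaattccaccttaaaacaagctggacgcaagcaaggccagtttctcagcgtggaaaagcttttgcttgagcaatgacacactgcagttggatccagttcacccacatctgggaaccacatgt
Fmod: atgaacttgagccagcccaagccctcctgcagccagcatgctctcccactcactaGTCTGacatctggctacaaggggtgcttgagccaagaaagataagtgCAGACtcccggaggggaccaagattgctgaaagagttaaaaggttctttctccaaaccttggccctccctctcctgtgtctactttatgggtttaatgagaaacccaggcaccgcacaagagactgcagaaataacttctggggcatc
Bgn: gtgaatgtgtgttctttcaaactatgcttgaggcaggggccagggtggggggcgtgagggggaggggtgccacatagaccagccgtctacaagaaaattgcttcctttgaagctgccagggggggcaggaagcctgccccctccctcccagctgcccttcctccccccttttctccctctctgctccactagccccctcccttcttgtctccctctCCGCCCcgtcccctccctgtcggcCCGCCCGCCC
Vcan: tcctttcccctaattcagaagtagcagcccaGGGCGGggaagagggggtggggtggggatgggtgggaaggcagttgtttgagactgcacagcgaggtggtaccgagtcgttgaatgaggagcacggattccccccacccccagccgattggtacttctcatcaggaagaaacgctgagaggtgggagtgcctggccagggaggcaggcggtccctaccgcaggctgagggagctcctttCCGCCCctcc
Each motif was searched on both strands with overlapping matches counted, and its share among 32851 RefSeq windows of this length is the background. The TATA box was searched as TATAAA, which 12.4% of all windows held. The GC box was searched as GGGCGG, found in 32.7% of all windows. The AP-1 site was searched as TGANTCA, found in 6.75% of all windows. The TEAD site was searched as GGAATG, found in 12.6% of all windows. The SMAD element was searched as CAGAC, found in 42.2% of all windows. Bgn held 3 GC boxes, the nearest 6 bases before the start, and Vcan held 2, while Fmod held 2 SMAD elements and Dpt held none of the 5 motifs. Windows for 6 of the 8 members were in the reference, and across these 6 the AP-1 letters were absent. A match describes letters in a window and is no evidence of binding.

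Ordered by CPM per kilobase of annotated exon, averaged over the 12 mice, Dcn led with 42.3 ± 6.82 (SD), followed by Bgn with 38.7 ± 6.90, Prelp with 33.9 ± 5.30 and Lum with 26.2 ± 9.92. Dpt stood at 11.5 ± 5.27 CPM per kilobase. Fmod at 1.83 ± 0.893, Ogn at 0.844 ± 0.266 and Vcan at 0.514 ± 0.107 CPM per kilobase were the scarce members. Dcn and Bgn did not differ beyond their spread: Dcn was the higher in 5 of 6 KO mice and in 2 of 6 WT mice. Prelp exceeded Lum in 9 of 12 mice, and Bgn exceeded Prelp in 11. From Lum downward each neighbour in the order held in 12 of 12 mice. Summed over the 8 genes the level was 641 ± 75.2 CPM in KO and 769 ± 128 CPM in WT (SD, n = 6 each).

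The comparison of KO with WT asks which matrix transcripts differ between these groups of mice. Loss of Hsd17b13 cannot be told apart here from any other difference between the groups, including along chromosome 5, which holds the gene. At a mean of at least 10 CPM 14 genes were called, and 4 were called when chromosome 5 genes were left out. A difference is the KO mean minus the WT mean on the log2(CPM + 1) scale, where the pseudocount shrinks the change of scarce genes. Tests are limma's, with p-values adjusted by Benjamini-Hochberg over all genes of the fit. At a mean of at least 10 CPM, 9186 genes were tested, of which 0.0435% were called lower in KO, 5.29% were lower at an unadjusted p under 0.05 (9.8% in either direction) and 54.4% had a negative difference. At least 1 CPM left 15648 genes, with 0.0959% called lower, 7.64% lower at an unadjusted p under 0.05 and 60.8% negative. Dcn, Lum, Bgn, Prelp and Dpt passed the first minimum, and Fmod, Ogn and Vcan, like every other gene under 10 CPM, were read from the second fit. In the first fit 0 of the 5 members were called, and 4 had an unadjusted p under 0.05, all lower in KO. The largest of these 4 was the limma p of Prelp, at 0.0486. In the second fit 1 of the 8 members was called lower, Dpt, 5 had an unadjusted p under 0.05, and 8 of 8 differences were negative. The median difference of the 8 was -0.28, beside -0.03 over all genes of the second fit. The 8 were chosen with earlier results known, so these counts and medians are descriptions and no test of the group.

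**Figure D1:**
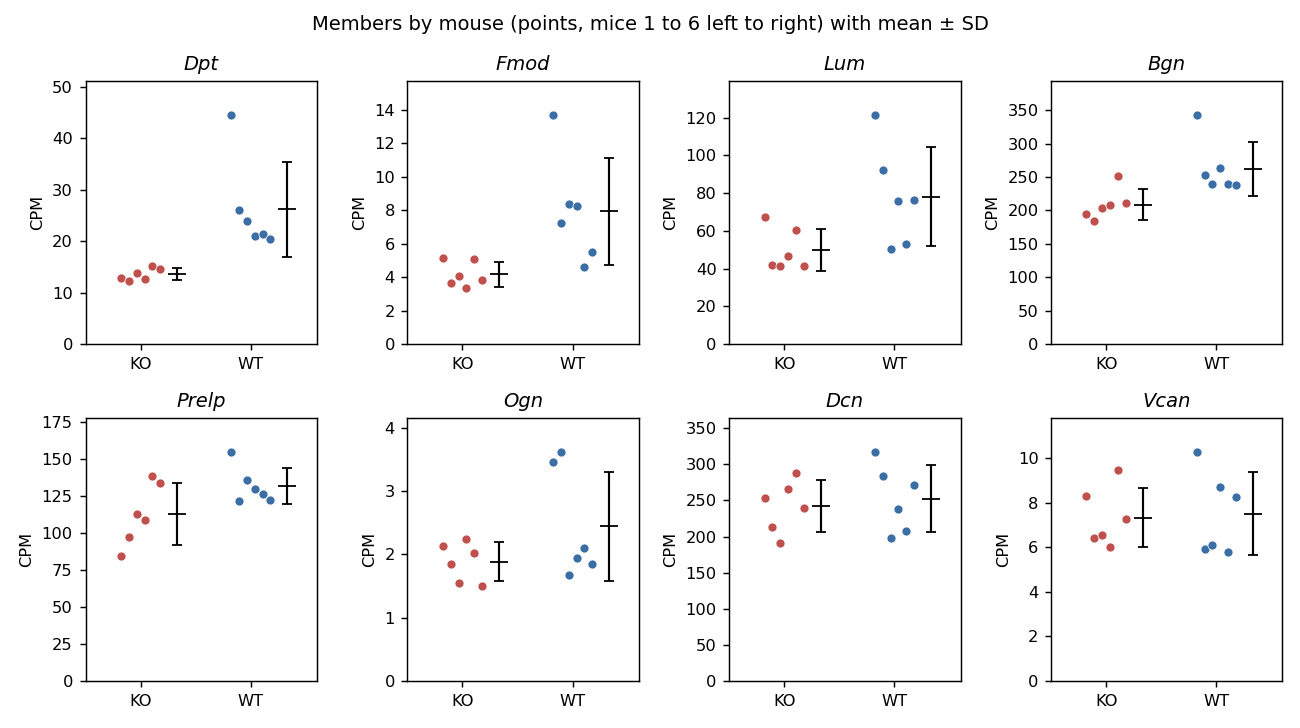
CPM of the 8 members in each mouse, KO left of WT in every panel, with points for mice 1 to 6 from left to right and the mean ± SD beside them. The 6 KO mice sit below all 6 WT mice for Dpt, and the groups overlap for the other members; WT mouse 1 is the top WT point in 7 panels.

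Dermatopontin showed the widest gap. Dpt ran from 12.3 to 15.2 CPM in KO mice with a median of 13.3, against 20.4 to 44.5 CPM in WT mice with a median of 22.7. The KO mice were tightly grouped and the groups did not overlap, a pattern that 0.533% of the 9186 genes showed in the same direction. KO averaged 13.6 ± 1.14 CPM and WT 26.2 ± 9.18 CPM (SD, n = 6 each), a log2 difference of -0.85 (SE 0.15). The limma adjusted p was 0.0515 with the 10 CPM minimum and 0.0473 with the 1 CPM minimum, so it lay close to the threshold on either side. With a pseudocount of 10 the difference was -0.59 (limma adjusted p = 0.0938), and without chromosome 5 genes the adjusted p was 0.103. The exact two-sided permutation p was 0.00216, unadjusted, and no division of the mice into equal groups could give a smaller one. WT mouse 1, at 44.5 CPM, widened both the difference and the spread. Without it WT averaged 22.6 ± 2.33 CPM (n = 5), the log2 difference was -0.69 (SE 0.08) and the limma adjusted p was 0.00088. Among the 12 fits that left out 1 mouse each, this was the single fit of the first kind that called Dpt, and the largest adjusted p was 0.166. Without KO mice 1 and 3 the difference was -0.84 (limma adjusted p = 0.0581).

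The SLRPs of the second class, Fmod, Lum and Prelp, had lower KO means by unequal amounts. Fibromodulin, which can carry keratan sulfate and binds collagen I fibrils and TGF-beta, ran from 3.37 to 5.13 CPM in KO mice (median 3.94) and from 4.62 to 13.7 CPM in WT mice (median 7.75). In KO 4 of 6 mice lay below every WT mouse. The means were 4.18 ± 0.752 CPM in KO and 7.94 ± 3.18 CPM in WT (SD, n = 6 each), and the log2 difference was -0.73 (SE 0.19, limma adjusted p = 0.111, exact permutation p = 0.00866 unadjusted), or -0.32 with a pseudocount of 10. Without WT mouse 1 the Fmod difference was -0.57 and the exact permutation p 0.0108. Lumican, which regulates fibril assembly and is required for corneal transparency, ran from 41.2 to 67.3 CPM in KO mice (median 44.4) and from 50.2 to 121 CPM in WT mice (median 76.2). KO mice 1 and 5 lay within the WT range and the other 4 below it. The means were 49.9 ± 11.2 CPM in KO and 78.1 ± 26.4 CPM in WT (SD, n = 6 each), with a log2 difference of -0.60 (SE 0.20, limma adjusted p = 0.279, exact permutation p = 0.0325 unadjusted). Without WT mouse 1 the Lum difference was -0.46 and the exact permutation p 0.0541. Prolargin, which anchors basement membrane to connective tissue, ran from 84.6 to 139 CPM in KO mice (median 111) and from 122 to 155 CPM in WT mice (median 128). KO mice 5 and 6 were as high as WT mice. The means were 113 ± 20.9 CPM in KO and 132 ± 12.3 CPM in WT (SD, n = 6 each), and the log2 difference was -0.24 (SE 0.11, limma p = 0.0486 unadjusted and 0.507 adjusted, exact permutation p = 0.0779). Without KO mouse 1 the Prelp difference was -0.16 (SE 0.10).

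The chondroitin and dermatan sulfate SLRPs of the first class, Bgn and Dcn, had unlike values: Bgn had a lower KO mean with no limma call, and Dcn had nearly equal means. Biglycan, which binds collagen and can signal through Toll-like receptors when released from matrix, ran from 184 to 252 CPM in KO mice (median 206) and from 238 to 342 CPM in WT mice (median 246). In KO 5 of 6 mice lay below every WT mouse, and KO mouse 5 lay within the WT range. The means were 209 ± 23.2 CPM in KO and 263 ± 40.3 CPM in WT (SD, n = 6 each), with a log2 difference of -0.32 (SE 0.10, limma adjusted p = 0.215, exact permutation p = 0.00866 unadjusted). Without WT mouse 1, WT averaged 247 ± 11.1 CPM (n = 5) and the difference was -0.24 (exact permutation p = 0.0108). Decorin, which binds collagen I and sequesters TGF-beta, ran from 191 to 289 CPM in KO mice (median 247) and from 197 to 317 CPM in WT mice (median 254). The groups overlapped almost wholly. The means were 242 ± 35.7 CPM in KO and 252 ± 46.4 CPM in WT (SD, n = 6 each), and the log2 difference of -0.05 (SE 0.13) had a 95% interval from -0.32 to 0.22 (limma adjusted p = 0.94). Its sign turned to 0.02 without WT mouse 1 and to 0.01 without KO mice 1 and 3.

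Osteoglycin, an SLRP of the third class that binds collagen, was the second scarcest member by CPM per kilobase. Ogn ran from 1.51 to 2.25 CPM in KO mice (median 1.94) and from 1.67 to 3.62 CPM in WT mice (median 2.03). WT mice 1 and 2 stood above the rest at 3.47 and 3.62 CPM, and the other mice of both groups overlapped. The log2 difference was -0.23 (SE 0.14) with a 95% interval from -0.54 to 0.08 (limma adjusted p = 0.639). It was -0.06 with a pseudocount of 10, -0.13 under quantile normalization, -0.14 without WT mouse 1 and -0.13 without WT mouse 2. Versican ran from 6.01 to 9.49 CPM in KO mice (median 6.91) and from 5.79 to 10.3 CPM in WT mice (median 7.20). The groups overlapped over nearly their whole ranges. Its log2 difference of -0.02 (SE 0.14) had a 95% interval from -0.32 to 0.28 (limma adjusted p = 0.982), and the sign turned under quantile normalization (0.04) and under median-of-ratios scaling (0.01).

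**Figure D2:**
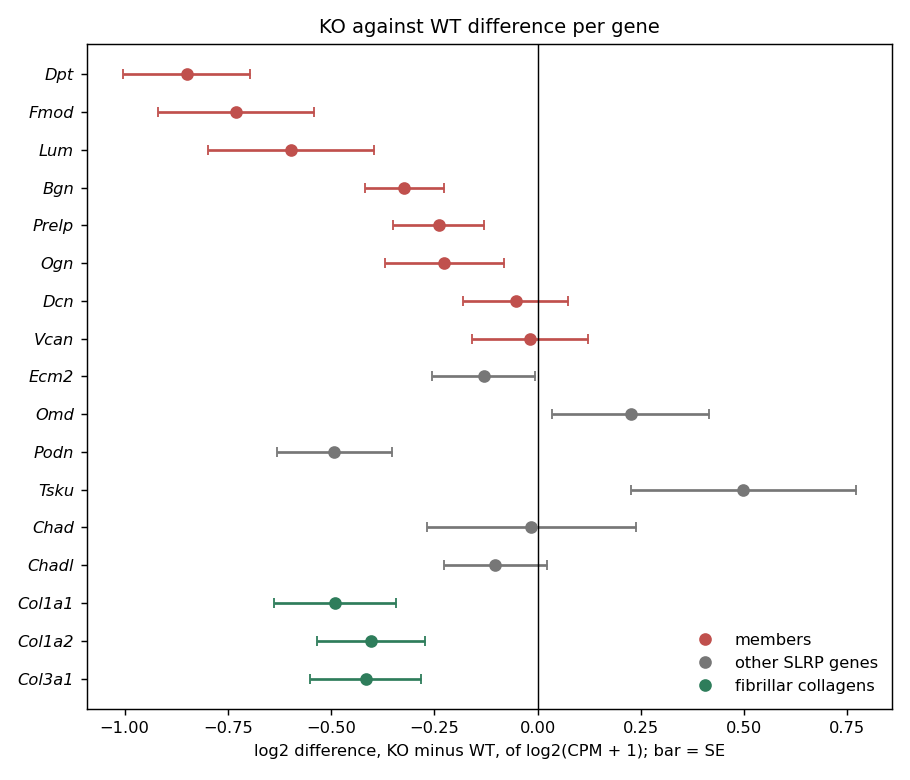
Log2 difference, KO minus WT, of log2(CPM + 1) with its SE for the 8 members, 6 other SLRP genes and 3 fibrillar collagens. Dpt is leftmost at -0.85, Dcn and Vcan sit at -0.05 and -0.02, and the 3 collagens lie between -0.49 and -0.40.

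Lum and Dcn are adjacent on chromosome 10, and their ratio is given as a description, with no test, since it was chosen after their KO and WT values were seen. Per 1000 CPM of Dcn, Lum was at 206 ± 33.5 CPM in KO and 303 ± 49.2 CPM in WT (SD, n = 6 each). The ratio ran from 174 to 265 in KO mice and from 254 to 382 in WT mice, so the ranges overlapped only at their ends. The log2 ratio was -0.55 in KO relative to WT. Within WT mice, log2 Lum followed log2 Dcn closely (Pearson r = 0.97, exact permutation p = 0.00139, adjusted p = 0.00556; Spearman rho = 1.0, p = 0.00278, adjusted p = 0.0111, n = 6), with r = 0.93 after the 2 mice farthest from the median of Dcn were left out. Within KO mice the values were r = 0.68 (exact permutation p = 0.133, adjusted p = 0.178) and rho = 0.77 (p = 0.103, adjusted p = 0.137, n = 6), with r = 0.49 without the 2 farthest. The 2 coefficients were not compared by a test. These belong to a family of 4 relations that also held Fmod with Prelp, the neighbouring pair on chromosome 1. That pair gave r = 0.85 in WT mice (exact permutation p = 0.0278, adjusted p = 0.0556; rho = 0.77, p = 0.103) and r = -0.05 in KO mice (p = 0.914; rho = 0.03, p = 1.0). Without the 2 mice farthest from the median of Prelp the WT value was r = 0.22, so it rests on them, and the KO value was r = 0.36. As background, the median r within WT mice over all 28 pairs of members was 0.69. Among the non-member genes most like Lum, Tmsb4x and Itgb1 followed it within WT mice at r = 0.98 and 0.96. The tests of these 4 relations therefore do not address adjacency.

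**Figure D3:**
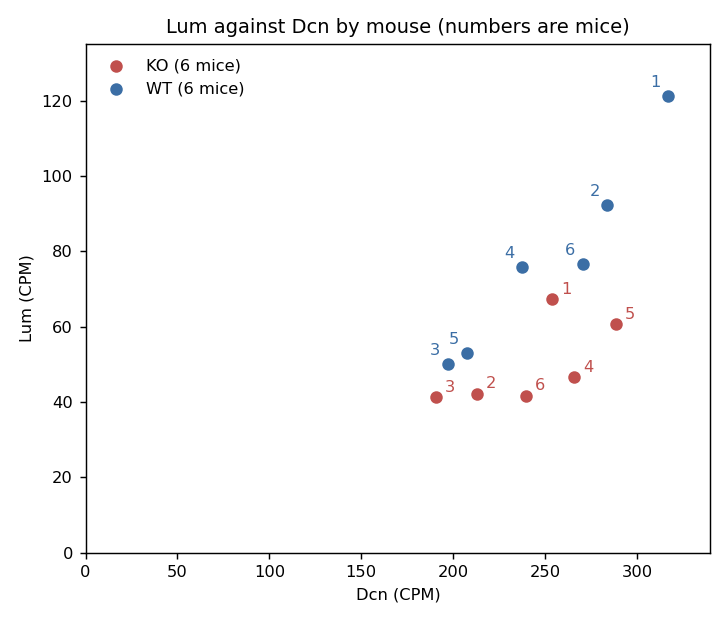
Lum against Dcn in CPM for each mouse, with mouse numbers; red points are KO and blue points WT. At like Dcn levels the KO points lie below the WT points, and WT mouse 1 is the highest in both genes at 317 CPM of Dcn and 121 CPM of Lum.

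The other members were set against Dcn in the same mouse in the same way, again with no test. Dpt per 1000 CPM of Dcn was 57.0 ± 8.87 CPM in KO and 103 ± 23.7 CPM in WT, a log2 difference of -0.84 (SD, n = 6 each). The KO range of 48.0 to 72.3 lay below the WT range of 75.3 to 140.3. Fmod per 1000 CPM of Dcn was 17.5 ± 3.10 CPM in KO and 31.4 ± 10.1 CPM in WT (log2 difference -0.80). The log2 differences of the other ratios to Dcn were -0.27 for Bgn, -0.27 for Ogn, -0.19 for Prelp and 0.03 for Vcan.

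Fibrillar collagen transcripts were the other scale for the members. The sum of Col1a1, Col1a2 and Col3a1 was 602 ± 65.5 CPM in KO and 831 ± 201 CPM in WT (SD, n = 6 each), a log2 difference of -0.44 (exact permutation p = 0.0108). The highest sum was that of WT mouse 1, at 1177 CPM. The 8 ratios to this sum were tested by exact two-sided permutation, unadjusted, and the differences lay on both sides of 0. The ratios were chosen with earlier results of these data known, so their p-values are given as descriptions. Because the collagen sum was lower in KO, a member with like CPM in both groups has a higher ratio in KO. This holds for Vcan and Dcn, whose own log2 differences were -0.02 and -0.05. Dpt per 1000 CPM of collagen was 22.8 ± 3.12 CPM in KO and 31.6 ± 6.73 CPM in WT (log2 difference -0.45, exact permutation p = 0.0195). With Col1a1 alone as the denominator its p was 0.0519, and without KO mice 1 and 3 it was 0.0571. Fmod per 1000 CPM of collagen was 6.98 ± 1.16 CPM in KO and 9.39 ± 2.05 CPM in WT (log2 difference -0.42, exact permutation p = 0.0368), and it kept an exact p under 0.05 in 5 of 14 alternatives. With Col1a1 alone its exact permutation p was 0.0974, and leaving out WT mouse 1, 2, 3 or 4, KO mouse 2, 3 or 4, or KO mice 1 and 3 together gave 0.0524 to 0.0714. Vcan per 1000 CPM of collagen was higher in KO, at 12.3 ± 2.08 CPM against 9.09 ± 1.11 CPM in WT (log2 difference 0.42, exact permutation p = 0.0152), and its p stayed at or below 0.026 in 14 of 14 alternatives. Dcn per 1000 CPM of collagen was 403 ± 49.1 CPM in KO and 313 ± 76.1 CPM in WT (log2 difference 0.39, exact permutation p = 0.0368), with an exact p under 0.05 in 5 of 14 alternatives. Leaving out WT mouse 1, 3, 4 or 5 or KO mouse 1, 2, 4, 5 or 6 took the Dcn ratio's exact permutation p to between 0.0541 and 0.0758. Bgn, Prelp, Ogn and Lum gave log2 differences of 0.11, 0.20, 0.12 and -0.17 (exact permutation p = 0.26, 0.225, 0.645 and 0.413). Over the 14 alternatives the Ogn ratio ran from 0.02 to 0.31, the highest without WT mouse 2 (exact permutation p = 0.0541), and the Lum ratio from -0.28 to -0.04, the nearest to 0 again without WT mouse 2. The Bgn ratio ran from 0.07 to 0.17 and the Prelp ratio from 0.10 to 0.29, and 0 of these 4 ratios had an exact permutation p under 0.05 in any alternative.

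**Figure D4:**
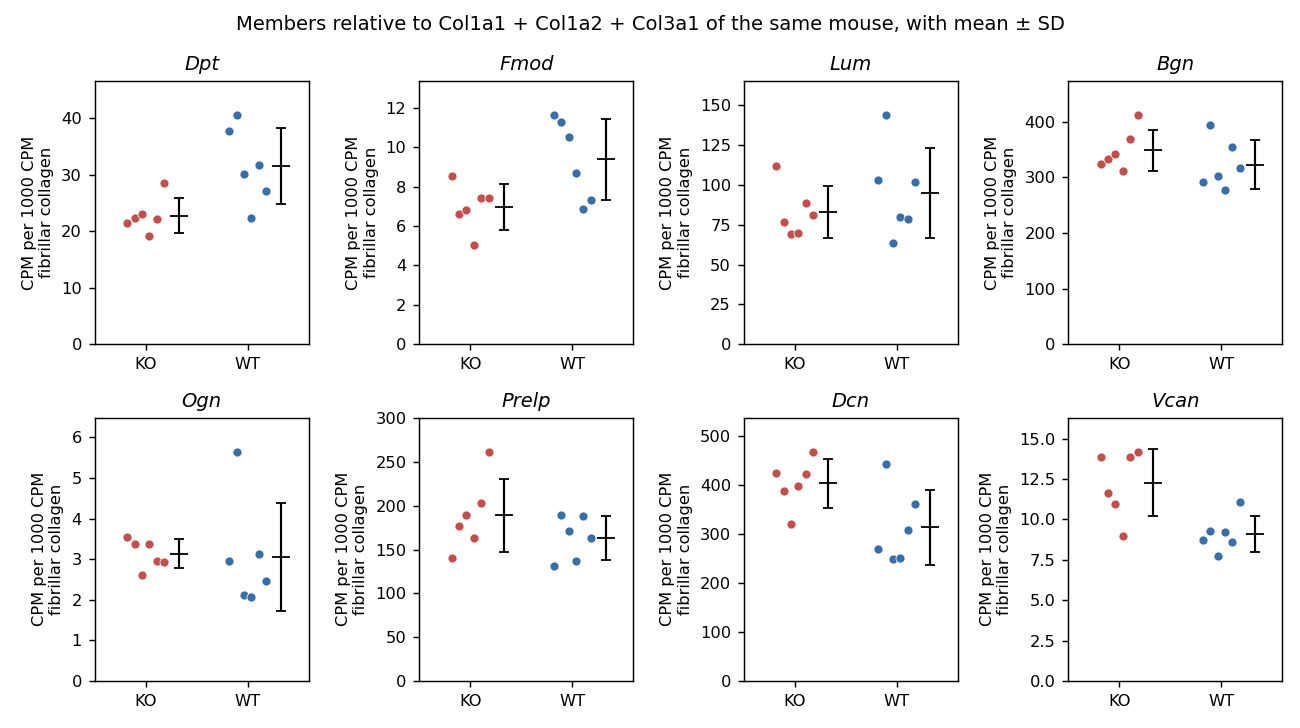
CPM of each member per 1000 CPM of Col1a1, Col1a2 and Col3a1 summed in the same mouse, KO left of WT, with the mean ± SD of 6 mice. Dpt and Fmod have lower KO means, Dcn and Vcan higher KO means, and the other 4 overlap widely.

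The other SLRP genes were mostly scarce and none was called. Of 12 such genes 8 were measured, and Kera and Epyc beside Lum and Optc beside Prelp were not among the genes listed. Tsku, a secreted SLRP made by hepatocytes, stood at 134 ± 49.8 CPM in KO and 93.1 ± 31.3 CPM in WT (SD, n = 6 each, limma adjusted p = 0.608). Podn, which encodes the SLRP podocan, stood at 4.24 ± 0.585 CPM in KO and 6.52 ± 1.97 CPM in WT (log2 difference -0.49, limma adjusted p = 0.131). Omd, next to Ogn, stood at 3.79 ± 1.12 CPM in KO and 3.11 ± 0.995 CPM in WT, with a limma adjusted p of 0.761. Ecm2 stood at 1.75 ± 0.352 CPM in KO and 2.03 ± 0.566 CPM in WT (limma adjusted p = 0.792), and Aspn, tested with no minimum, at 0.24 ± 0.0515 CPM in KO and 0.279 ± 0.134 CPM in WT (limma adjusted p = 0.914). The row on chromosome 13 held differences of both signs, none of them called.

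Collagens that SLRPs bind had negative differences in 10 of 10 tested genes, with a median of -0.38 beside -0.01 over all 9186 genes. With limma 0 were called and 7 had an unadjusted p under 0.05. Col6a3, a chain of beaded filaments to which decorin and biglycan bind, stood at 138 ± 18.6 CPM in KO and 229 ± 70.4 CPM in WT (log2 difference -0.69, limma adjusted p = 0.124). Col5a2, a chain of the collagen that nucleates fibrils, stood at 23.9 ± 2.61 CPM in KO and 36.3 ± 9.27 CPM in WT (limma adjusted p = 0.134). Col14a1, a fibril-surface collagen, was at 166 ± 14.6 CPM in KO and 167 ± 14.2 CPM in WT (limma adjusted p = 0.974).

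Enzymes that cut versican and SLRPs or process collagen were listed with enhancer proteins of procollagen cleavage. Of this list 13 genes had a mean of at least 1 CPM, and 11 had negative differences, beside 60.8% of all genes in that fit. Mmp13, the main interstitial collagenase of mice, was higher in KO, at 9.79 ± 0.832 CPM against 6.94 ± 0.755 CPM in WT (SD, n = 6 each, log2 difference 0.44, limma adjusted p = 0.0453). It was the only one called, and the 10 CPM minimum leaves it untested. In the same fit 0.102% of 15648 genes were called higher. Its adjusted p lay close to the threshold, and its values under other settings are not given. Mmp2, a gelatinase, stood at 15.4 ± 2.98 CPM in KO and 26.6 ± 7.87 CPM in WT (limma adjusted p = 0.119). The versican-cleaving proteases Adamts5 (15.6 ± 2.09 CPM in KO and 22.7 ± 5.10 CPM in WT, limma adjusted p = 0.148) and Adamts15 (5.64 ± 0.645 CPM in KO and 7.20 ± 0.815 CPM in WT, limma adjusted p = 0.136) were not called. Adamts9, of the same family, was also not called (18.7 ± 3.42 CPM in KO and 28.2 ± 8.25 CPM in WT, limma adjusted p = 0.229).

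The enzymes that build the sugar chains gave mostly small differences. Of 22 genes for the linker and for chondroitin and dermatan sulfate, 22 passed 1 CPM, 15 had negative differences, the median was -0.06 and 0 were called with limma, with 2 at an unadjusted p under 0.05. These were Xylt1, the xylosyltransferase that starts the chain (8.88 ± 1.47 CPM in KO and 12.4 ± 1.97 CPM in WT, limma adjusted p = 0.17), and Chst11, a chondroitin sulfotransferase (7.84 ± 1.10 CPM in KO and 9.91 ± 2.16 CPM in WT, limma adjusted p = 0.391). The epimerase Dse, which turns chondroitin into dermatan sulfate, was at 29.4 ± 2.98 CPM in KO and 29.2 ± 2.02 CPM in WT (limma adjusted p = 0.982). Of the 5 keratan sulfate genes past 1 CPM, 4 had negative differences and 0 had an unadjusted p under 0.05 or were called by limma. B4galt1, a galactosyltransferase, was at 74.7 ± 11.9 CPM in KO and 76.9 ± 3.82 CPM in WT. Below that minimum, B3gnt7, a glycosyltransferase that extends keratan sulfate, was at 0.41 ± 0.129 CPM in KO and 0.769 ± 0.12 CPM in WT (log2 difference -0.33, limma adjusted p = 0.0819 with no minimum).

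Among hyaluronan and hyalectan partners 12 genes passed 1 CPM, 6 of them with negative differences and 0 called by limma. The only one at an unadjusted p under 0.05 was Itih5, which stabilizes hyaluronan matrix (42.4 ± 8.96 CPM in KO and 55.3 ± 9.85 CPM in WT, limma adjusted p = 0.354). Cd44, the hyaluronan receptor, was at 74.7 ± 9.07 CPM in KO and 82.8 ± 14.4 CPM in WT (limma adjusted p = 0.769). Heparan sulfate and other proteoglycans had 16 genes past 1 CPM, 8 of them with negative differences, a median of -0.02, and 0 at an unadjusted p under 0.05 or called by limma. Sdc3, a cell-surface syndecan, was at 184 ± 27.1 CPM in KO and 159.8 ± 12.0 CPM in WT (limma adjusted p = 0.518), and Gpc4, a glypican, at 77.9 ± 6.09 CPM in KO and 72.8 ± 5.19 CPM in WT (limma adjusted p = 0.713). Below that minimum, Cspg4, the NG2 proteoglycan of pericytes, was at 0.415 ± 0.155 CPM in KO and 0.987 ± 0.453 CPM in WT (log2 difference -0.47, limma adjusted p = 0.123 with no minimum).

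Of the receptors and ligands that SLRPs bind 20 genes passed 1 CPM, 17 with negative differences, with 0 called by limma, 6 lower and 1 higher at an unadjusted p under 0.05. Over all genes of that fit 60.8% were negative and 7.64% were lower at that p. Tgfb3, a ligand that decorin and biglycan bind, stood at 3.82 ± 0.65 CPM in KO and 7.47 ± 2.41 CPM in WT (log2 difference -0.78, limma adjusted p = 0.0586). Tgfb2 stood at 3.21 ± 0.552 CPM in KO and 5.89 ± 1.92 CPM in WT (limma adjusted p = 0.0895), and Tgfb1, the ligand most studied in liver fibrosis, at 35.2 ± 4.76 CPM in KO and 37.1 ± 3.78 CPM in WT (limma adjusted p = 0.871). Elastin (Eln) stood at 9.04 ± 2.29 CPM in KO and 18.7 ± 7.34 CPM in WT (limma adjusted p = 0.116), and the matricellular Ccn2 at 13.3 ± 6.25 CPM in KO and 23.1 ± 5.64 CPM in WT (limma adjusted p = 0.187). Kdr, the VEGF receptor, was the one on the higher side, at 67.9 ± 9.54 CPM in KO and 57.2 ± 6.26 CPM in WT (limma adjusted p = 0.401). Igf1r, a receptor that decorin binds, was at 14.2 ± 1.54 CPM in KO and 20.2 ± 5.06 CPM in WT (log2 difference -0.45, limma adjusted p = 0.216). The receptors Egfr, Met, Lrp1, Tlr2 and Tlr4, which take up or sense decorin and biglycan, had limma adjusted p-values from 0.778 to 0.973.

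Markers of cell types that could contribute these transcripts were summed per mouse, and in whole liver fewer cells of a type and less RNA per cell cannot be told apart. Activated stellate markers (13 of 13 measured) summed to 784 to 1014 CPM in KO mice and 999 to 1691 CPM in WT mice. At 1 CPM or more 12 of the 13 had negative differences, 11 of them with an unadjusted p under 0.05, and 0 were called by limma. Over all genes of that fit 60.8% were negative and 7.64% were lower at that p. The 3 fibrillar collagens above are in this list, at 602 of its mean 902 CPM in KO and 831 of its mean 1225 CPM in WT. Acta2 and Tagln are counted again in the smooth muscle list. Quiescent stellate markers (12 of 12) summed to 560.1 to 705 CPM in KO mice and 587 to 645 CPM in WT mice, with 6 of 12 negative. At an unadjusted p under 0.05, 3 of them were lower and 3 higher. Portal fibroblast markers (9 of 10) summed to 40.8 to 54.3 CPM in KO mice and 49.8 to 97.4 CPM in WT mice. Of the 7 past 1 CPM, 5 had negative differences and 4 were lower at an unadjusted p under 0.05. Mesothelial markers (8 of 8) summed to 4.62 to 15.7 CPM in KO mice and 10.9 to 28.8 CPM in WT mice. Past 1 CPM, 6 of 6 genes were negative, 2 of them at an unadjusted p under 0.05. Of these only Krt7, a keratin that cholangiocytes share, was called (1.23 ± 0.538 CPM in KO and 3.61 ± 1.30 CPM in WT, limma adjusted p = 0.0495). In the same fit 0.0959% of 15648 genes were called lower. Krt7 lay close to the threshold, the 10 CPM minimum leaves it untested, and its values under other settings are not given. Smooth muscle markers (6 of 8) summed to 34.5 to 42.0 CPM in KO mice and 38.2 to 55.7 CPM in WT mice, and cholangiocyte markers (9 of 9) to 180.4 to 369.6 CPM in KO mice and 310.1 to 879 CPM in WT mice. Of the 5 smooth muscle genes past 1 CPM, 5 had negative differences and 3 were lower at an unadjusted p under 0.05. The cholangiocyte marker Spp1 alone averaged 182 ± 58.6 CPM in KO and 384 ± 171 CPM in WT, of list means of 247 and 507 CPM. Spp1 lies near Hsd17b13 on chromosome 5, so most of this sum is 1 gene of that chromosome. All 9 cholangiocyte markers were lower at an unadjusted p under 0.05, and Krt7 was the 1 called by limma. Kupffer cell markers (7 of 7) ran the other way, from 545 to 728 CPM in KO mice and from 361 to 541 CPM in WT mice. Of the 6 past 1 CPM, 0 had negative differences, 5 were higher at an unadjusted p under 0.05, and 0 were called by limma. Over all genes of that fit 11.3% passed that p in either direction. Hepatocyte markers (9 of 9) summed to 56319 to 69808 CPM in KO mice and 55504 to 74773 CPM in WT mice, with 0 called by limma and 0 at an unadjusted p under 0.05, and 0 of 5 adipocyte markers were measured. No measured marker of any list was at 0 in all libraries, and the part these cell types have in the members' differences was not tested.

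The genes whose levels followed each member most closely from mouse to mouse were found among the 9186 tested by Pearson's r of log2(CPM + 1) over 12 mice after the mean of each genotype was removed. These are descriptions of the top 3 of many genes, and libraries share depth and composition. For Dpt they were Gsn (r = 0.95), Thbs2 (0.93) and Cygb (0.91), and without WT mouse 1 these were 0.80, 0.71 and 0.73. Within KO mice alone they were 0.79, 0.28 and 0.64, and within WT mice 0.98 each. For Bgn they were Ehd2 (r = 0.96), Mrc2 (0.96) and Svep1 (0.94), and for Prelp Gdf10 (0.93), Unc93b1 (0.92) and Bckdk (0.90). Without the 2 mice farthest from the median of Bgn, the values for Ehd2, Mrc2 and Svep1 were 0.75, 0.80 and 0.77. For Lum they were Tmsb4x (r = 0.96), Itgb1 (0.96) and Snx5 (0.95), and for Dcn Rmi1 (0.94), 3830406C13Rik (0.93) and Zfp60 (0.92). Gsn, nearest to Dpt, was at 41.8 ± 4.98 CPM in KO and 61.0 ± 18.4 CPM in WT, and Svep1, near Bgn, at 29.7 ± 6.10 CPM in KO and 49.6 ± 12.6 CPM in WT (SD, n = 6 each, limma adjusted p = 0.201 and 0.114). Between members the 28 pairs had r from -0.04 (Ogn with Prelp) to 0.87 (Dcn with Lum), with a median of 0.61, or 0.43 without WT mouse 1.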

How the data were processed

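RNA of 12 livers, 6 from KO and 6 from WT mice, was sequenced. The deposited table holds CPM, which the authors made from gene counts: the values of each column sum to 1000000 and step by a common unit. Per the submitters' processing notes, the tools included STAR 2.7.3a, Partek 10.0 and DESeq2 1.14.1 with mm10, and the strand setting is not given. Between 71.0% and 74.9% of values from 0.1 to 1 CPM lay within 0.02 of a whole count. No pair of libraries of the same group was alike within sampling noise, and KO libraries were not set against WT libraries in this check. The tests were planned for normalized counts and were kept for CPM.

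Values were tested as log2(CPM + 1) with limma 3.58.1 in R 4.3.3 with a mean trend, 1 coefficient for genotype and no covariates, at a mean of at least 10 CPM, or at least 1 CPM for scarcer genes, with a threshold of 0.05 on the adjusted p. The script was tested on simulated data. Ratios to collagen and single values used exact permutation tests over mice, computed in Python 3.11.15 with NumPy 2.4.6. The 8 genes, the pathway and marker lists and the ratios were chosen with earlier results of these data known. Genes named from a pathway list were among the 4 with the smallest p in it at either minimum or neighbours of a member, except Col14a1, Dse, B3gnt7, Cspg4, Tgfb1, Egfr, Met, Lrp1, Tlr2, Tlr4 and the markers Krt7 and Spp1, which were picked after their values were seen. The 3 genes most like each member were named by Pearson's r. Alternatives were other minimums, pseudocounts, normalizations, weights, a replicate block and leaving mice out. Same-numbered KO and WT mice did not deviate together (r from -0.51 to 0.39). Depth was 46.3 to 77.9 counts per CPM, so counting errors were 10.8% or less for every member in every library, and they cover counting only, since no molecular identifiers are described.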

Additional observations from a re-analysis of the deposited data

Results flagged for a closer look

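Of 32 sets of 6 mice examined, 3 had a mouse far from the other 5, beyond the Dixon limit of 0.625 for the gap over the whole range. Chance gives about 1 in 20 such sets. Dpt in WT mouse 1 was at 44.5 CPM, with the next WT mouse at 26.0 CPM (gap over range 0.766). Bgn in WT mouse 1 was at 342 CPM, with the next WT mouse at 264 CPM (0.756). Ogn per 1000 CPM of fibrillar collagen in WT mouse 2 was at 5.64 CPM, with the next WT mouse at 3.12 CPM (0.704). Without WT mouse 1 the log2 difference of KO minus WT was -0.69 for Dpt and -0.24 for Bgn, beside -0.85 and -0.32 with all mice. Without WT mouse 2 that of the Ogn ratio was 0.31 (exact permutation p = 0.0541), beside 0.12 (exact permutation p = 0.645) with all mice.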

How the results depend on the processing

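Bgn, Dpt, Fmod, Lum, Ogn and Prelp kept a negative difference in 23 of 23 alternatives, but with a pseudocount of 10 Fmod stood at -0.32 and Ogn at -0.06. The number of genes called was 14. It was 31 with a minimum of 1 CPM, 29 with no filter, 35 with library weights, 4 without chromosome 5 genes, 89 without KO mice 1 and 3, and 9 to 25 when 1 mouse was left out. The members called numbered 0, and 1 (Dpt) under a minimum of 1 CPM, no filter, a pseudocount of 0.5, quantile normalization, median-of-ratios scaling and library weights, and 0 to 1 when 1 mouse was left out. Under those settings the Dpt difference was -0.85, -0.85, -0.87, -0.83, -0.84 and -0.85 (limma adjusted p from 0.0439 to 0.048). It was -0.59 with a pseudocount of 10 (limma adjusted p = 0.0938), -0.85 with no mean trend (0.0528) and without chromosome 5 genes (0.103), and -0.91 to -0.69 with 1 mouse left out. Vcan turned to 0.0375 under quantile normalization and 0.0113 under median-of-ratios scaling and ran from -0.0874 to 0.0681 with 1 mouse left out. Dcn turned to 0.0078 without KO mice 1 and 3 and ran from -0.12 to 0.0163 with 1 mouse left out. Vcan relative to Dcn was -0.0399 without KO mice 1 and 3 and ran from -0.0645 to 0.12 with 1 mouse left out. The cause of these changes was not tested. With the replicate number as a block, 11 genes and 0 members were called and Dpt stood at -0.85 (limma adjusted p = 0.117), but the numbers do not pair the mice: 0 of 6 correlated best with their own number. Ogn, with at least 86 counts a library, is limited most by depth.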
